A study of Mus musculus with 8 samples.

Results

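Efferocytosis receptors and bridging ligands are the proteins with which a macrophage recognizes and binds an apoptotic cell. The genes described here are *Mertk*, *Axl* and *Tyro3* (the TAM receptor tyrosine kinases), *Gas6*, *Pros1* and *Mfge8* (the secreted ligands that bridge phosphatidylserine to a receptor), *Itgav*, *Itgb3* and *Itgb5* (the subunits of the αvβ3 and αvβ5 integrins) and *Timd4* (the phosphatidylserine receptor Tim-4). They make up 10 of the 53819 gene rows of the count table and were taken by symbol. They were selected on the bilirubin and vehicle values of these same libraries, and *Mertk*, *Axl*, *Gas6* and *Pros1* are also genes that the study examined for this contrast. Their values with bilirubin and vehicle are therefore given as a description, without a p-value.

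Apoptotic cells display phosphatidylserine on their outer membrane leaflet. Gas6 and protein S, the product of *Pros1*, bind this lipid through Gla domains and a TAM receptor through their other end, and MFG-E8, the product of *Mfge8*, links the lipid to αvβ3 and αvβ5 through an RGD motif. MerTK is the TAM receptor most associated with clearance of apoptotic cells by resting macrophages, Axl is induced during inflammation and prefers Gas6, and Tim-4 marks some resident macrophages and tethers the corpse without signaling by itself.

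RNA was sequenced from bone marrow-derived macrophages (BMDM) of wild-type female BALB/cJ mice aged 8 weeks. Marrow cells were grown with M-CSF at 25 ng/mL for 5 days, and 1 culture of each of 4 mice then received DMSO vehicle while another received 2.5 µM bilirubin, the heme breakdown product, for 48 h. These are cells differentiated in culture, without apoptotic cells added for this measurement, and the transcripts of all cells in a culture were measured together. The 8 libraries held from 34142781 to 47071714 estimated counts on genes. The bilirubin culture of mouse 1 stood apart from the other bilirubin cultures, with a mean chi-square per gene of 31.4 to 47.5 between its counts and theirs, whereas the other pairs of bilirubin cultures lay between 7.04 and 16.9. Fold changes and ratios of the receptors and ligands are given below with and without mouse 1. All 9 macrophage markers were measured in all libraries, and their summed level was 24247 to 24535 CPM (counts scaled to the depth of their library) with vehicle and 28586 to 30580 CPM with bilirubin.

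The *Axl* and *Mfge8* genes each produced a pair of coding transcripts that differ in the GENCODE annotation by 1 exon, whose sequence is shown. The transcripts as quantified differ by more than this exon. Axl-201 has 4265 bases and Axl-202 has 3899, and Mfge8-201 has 2125 and Mfge8-202 has 2008. The shares given below therefore rest on that other sequence as well. On GRCm39 the *Axl* exon is chr7:25472524-25472550 on the minus strand, exon 10 of 20 in transcript Axl-201 and absent from Axl-202, and its 27 bases encode 9 codons. The *Mfge8* exon is chr7:78793026-78793136 on the minus strand, exon 4 of 10 in Mfge8-201 and absent from Mfge8-202, with 111 bases and 37 codons.
Axl exon 10: ggcaaggacagccactccaccatctgg
Mfge8 exon 4: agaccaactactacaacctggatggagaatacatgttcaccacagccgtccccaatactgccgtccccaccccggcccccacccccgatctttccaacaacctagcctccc

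Promoters of the genes are shown for *Gas6* and *Axl*, which were lower with bilirubin, and for *Mertk*, which did not pass the threshold. The sequences are the 250 bases before the annotated start in RefSeq on GRCm38.p6, at chr8:13494536-13494785 on the minus strand for *Gas6*, chr7:25788734-25788983 on the minus strand for *Axl* and chr2:128698665-128698914 on the plus strand for *Mertk*. Capitals mark the GC box, GGGCGG on either strand, a motif that was added after the promoters had been seen.
Gas6 promoter: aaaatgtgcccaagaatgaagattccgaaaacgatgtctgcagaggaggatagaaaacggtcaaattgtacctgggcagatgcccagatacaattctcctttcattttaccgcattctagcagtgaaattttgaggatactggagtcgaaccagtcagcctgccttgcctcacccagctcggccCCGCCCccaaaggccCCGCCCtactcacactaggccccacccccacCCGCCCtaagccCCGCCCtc
Axl promoter: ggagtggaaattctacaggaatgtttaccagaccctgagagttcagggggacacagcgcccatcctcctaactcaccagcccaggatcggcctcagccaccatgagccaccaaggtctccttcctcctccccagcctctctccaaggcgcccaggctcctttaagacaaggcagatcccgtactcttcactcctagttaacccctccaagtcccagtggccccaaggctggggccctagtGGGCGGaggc
Mertk promoter: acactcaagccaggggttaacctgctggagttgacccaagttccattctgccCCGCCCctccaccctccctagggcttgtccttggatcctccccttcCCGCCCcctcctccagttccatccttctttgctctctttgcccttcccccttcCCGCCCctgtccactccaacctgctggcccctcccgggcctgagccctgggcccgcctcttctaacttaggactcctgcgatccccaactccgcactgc
A promoter was found for 9 of the 10 genes, all but *Itgb3*. The GC box was present in 7 of these 9, all but *Itgav* and *Timd4*, and in 32.7% of all 32851 RefSeq promoters, or 35.4% of genes. The windows with it held from 54.8% (*Gas6*) to 73.2% (*Tyro3*) G and C, against a median of 52.4% over all promoters. *Itgav* and *Timd4*, without it, held 64.4% and 50.0%. Since this motif was chosen after the windows had been seen, nothing is read from its count. The *Gas6* window held 4 copies, that of *Mertk* 3 and that of *Axl* 1. The κB motif of NFκB was present in 0 of the 9 windows and in 5.00% of all promoters, and the E-box CACGTG was also in 0 of 9, against 6.02%. The nuclear receptor motif AGGTCA and the Maf motif TGCTGA, which do not overlap the other motifs in their letters, each occurred in 1 of the 9 windows, both times that of *Timd4*, against 14.0% and 16.1% of all promoters. A match of letters is a description of the window and not a measured binding site.

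The level of each gene in vehicle cultures was compared in TPM, a share of all transcripts that divides each gene's reads by transcript length. *Itgb5* was at 196 ± 7.67 TPM (SD, n = 4 mice), *Gas6* at 186 ± 24.1 TPM and *Itgav* at 178 ± 5.07 TPM. The order of these 3 is not separated by the spread between mice, since *Itgb5* was above *Gas6* in 2 of 4 mice and *Gas6* above *Itgav* in 3 of 4, and *Itgav* came before *Gas6* when mouse 1 was left out. *Mfge8* followed at 83.6 ± 5.87 TPM, *Mertk* at 24.9 ± 2.34 TPM, *Pros1* at 18.7 ± 1.34 TPM and *Axl* at 11.9 ± 1.75 TPM. *Itgb3* was at 2.43 ± 0.422 TPM, so that among the β subunit transcripts that of αvβ5 was far more abundant than that of αvβ3. *Tyro3* at 0.194 ± 0.0600 TPM and *Timd4* at 0.0762 ± 0.0591 TPM were close to the floor.

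**Figure D1:**
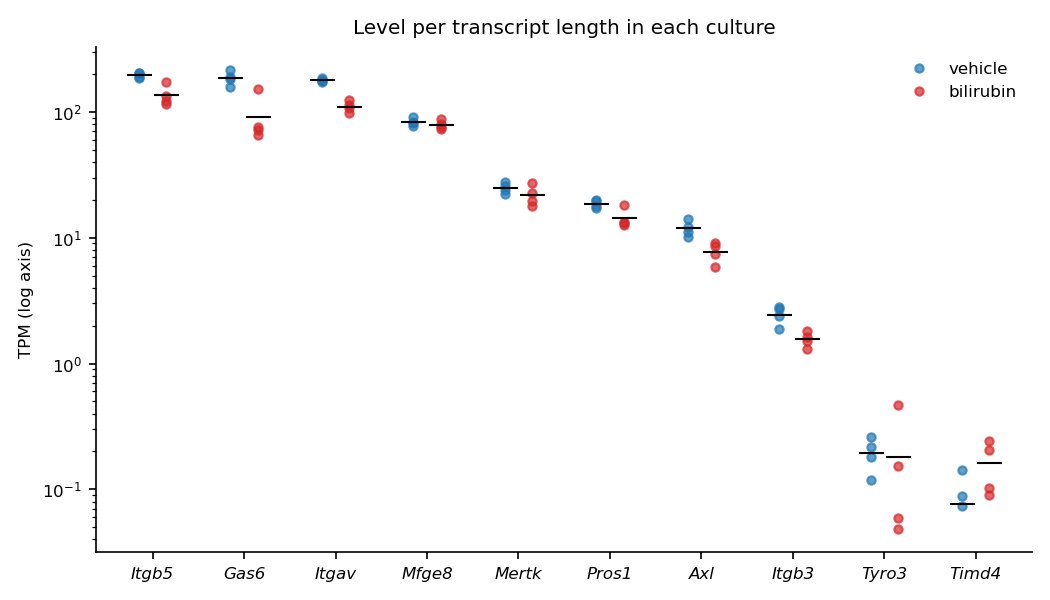
TPM on a log axis for each gene (x axis, in the order of the vehicle mean), with 1 point per culture, blue for vehicle and red for bilirubin, and a black bar at the mean of 4 mice. *Itgb5*, *Gas6* and *Itgav* lie at the top with vehicle means of 178 to 196 TPM and *Tyro3* and *Timd4* at the bottom; *Timd4* in the vehicle culture of mouse 1 is 0 and is not drawn.

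With bilirubin, 6 of the 9 tested genes had a lower level and passed an adjusted p of 0.05 in edgeR's quasi-likelihood test over all genes, and 0 had a higher level. These 6 were *Gas6*, *Itgav*, *Itgb3*, *Axl*, *Itgb5* and *Pros1*. Among all 13722 tested genes, 3.04% passed as lower and 4.49% as higher, and nothing is read from the members' count since this contrast chose them. The median log2 fold change of the 9 genes was -0.54, against -0.00 over all tested genes, and this median too is not independent of that choice. Without mouse 1, *Mertk* also passed and the count was 7 of 9, while 6.43% of all genes tested without this mouse passed as lower. In bulk RNA, fewer cells of a type and less RNA per cell cannot be told apart.

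**Figure D2:**
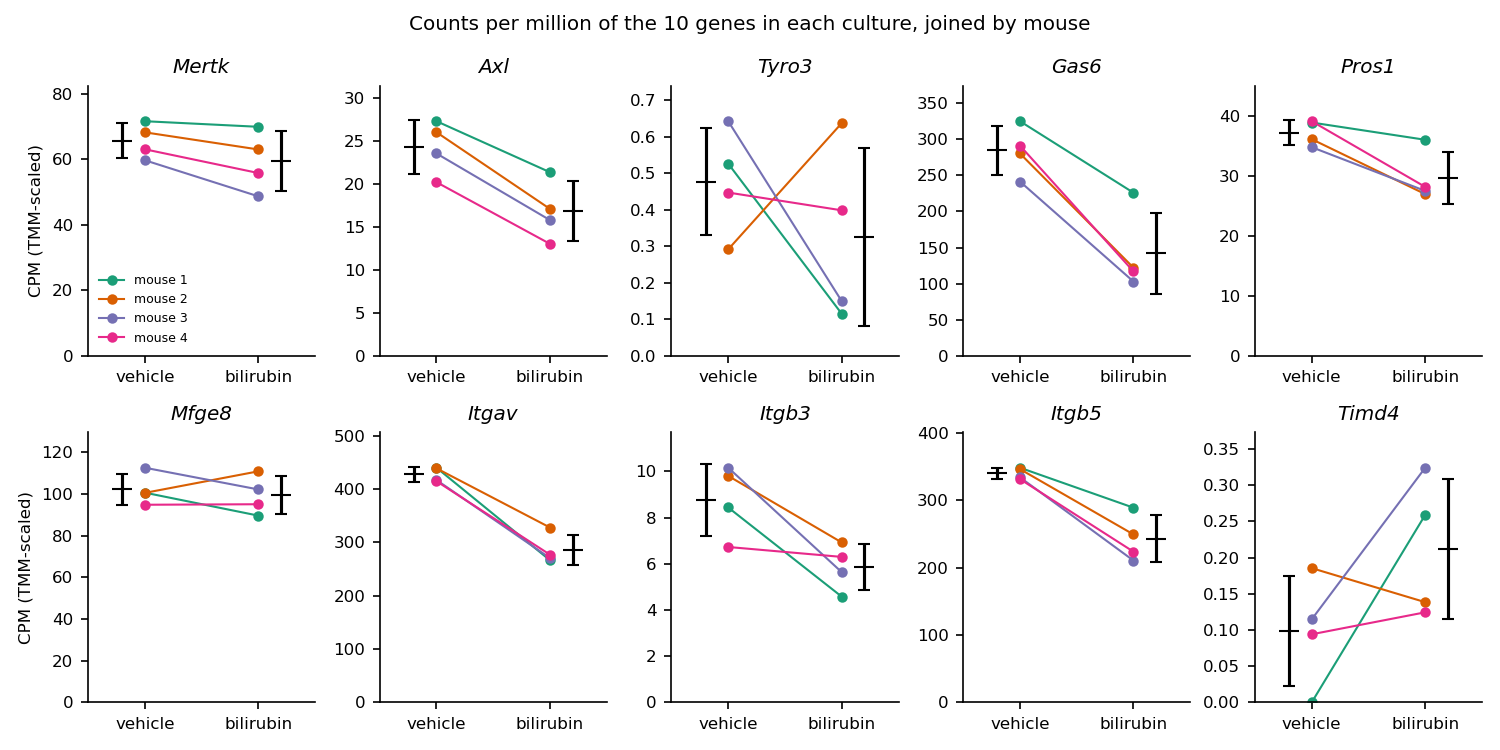
CPM on the y axis of each panel, which starts at 0, for the vehicle and bilirubin cultures of each mouse, joined by a line for each of the 4 mice, with the mean and SD of each group in black. *Gas6*, *Itgav* and *Itgb5* are lower in every bilirubin culture than in any vehicle culture, and *Tyro3* and *Timd4* lie below 1 CPM.

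Of the ligands, *Gas6* showed the largest difference. In vehicle cultures of mice 1 to 4 it stood at 325, 280, 241 and 291 CPM, and in the bilirubin cultures of the same mice at 226, 122, 103 and 117 CPM. The groups did not overlap, but the bilirubin culture of mouse 1 lay far above the other 3. On average this was 284 ± 34.4 CPM in vehicle and 142 ± 56.5 CPM in bilirubin cultures (SD, n = 4), a log2 fold change of -1.07 ± 0.12 (SE) or a ratio of 0.478. By mouse the log2 change was -0.52, -1.20, -1.23 and -1.32. Without mouse 1 the fitted log2 fold change was -1.25, and over the 4 fits that leave out a mouse it ran from -1.25 to -0.98. *Gas6* lies at chr8:13515371-13544824 on the minus strand of GRCm39, has 1 transcript in the files and overlaps *Tmem255b* on the opposite strand.

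*Pros1*, the gene of protein S, was lower by less. Its level was 38.9, 36.2, 34.8 and 39.2 CPM in vehicle cultures and 36.1, 27.0, 27.5 and 28.2 CPM in bilirubin cultures. The groups overlapped by the bilirubin culture of mouse 1 alone, which lay above the vehicle culture of mouse 3. The log2 fold change was -0.34 ± 0.06 (SE). *Pros1* did not pass the threshold when mouse 2, 3 or 4 was left out, with a log2 fold change of -0.31, -0.34 and -0.29, and was at -0.41 without mouse 1. Nor did *Pros1* pass without the pairing by mouse or with an offset for transcript length.

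*Mfge8*, the integrin ligand, did not pass the threshold. It was at 101, 101, 113 and 94.8 CPM with vehicle and 89.6, 111, 102 and 95.1 CPM with bilirubin, higher in 2 mice and lower in the other 2, with a log2 fold change of -0.04 ± 0.05 (SE), or -0.00 without mouse 1. The make-up of the ligand transcripts also differed. *Gas6* was 64.4% ± 3.78 of the summed TPM of *Gas6*, *Pros1* and *Mfge8* with vehicle and 47.7% ± 9.35 with bilirubin (SD, n = 4), lower in 4 of 4 mice. In the bilirubin cultures of mice 1 to 4 it was 61.5%, 43.0%, 41.1% and 45.4%, so that the share of mouse 1 was within the vehicle range of 59.0% to 67.7%. Without mouse 1 the means were 63.2% and 43.2%. *Mfge8* was 29.2% ± 3.78 with vehicle and 44.4% ± 9.13 with bilirubin, and in mice 2, 3 and 4 it exceeded *Gas6* in the bilirubin culture, with means of 30.2% and 48.9% without mouse 1. The TPM ratio of *Gas6* to *Pros1* was 9.96 ± 0.797 with vehicle and 6.15 ± 1.46 with bilirubin, lower in 4 of 4 mice, and 9.62 and 5.45 without mouse 1.

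**Figure D3:**
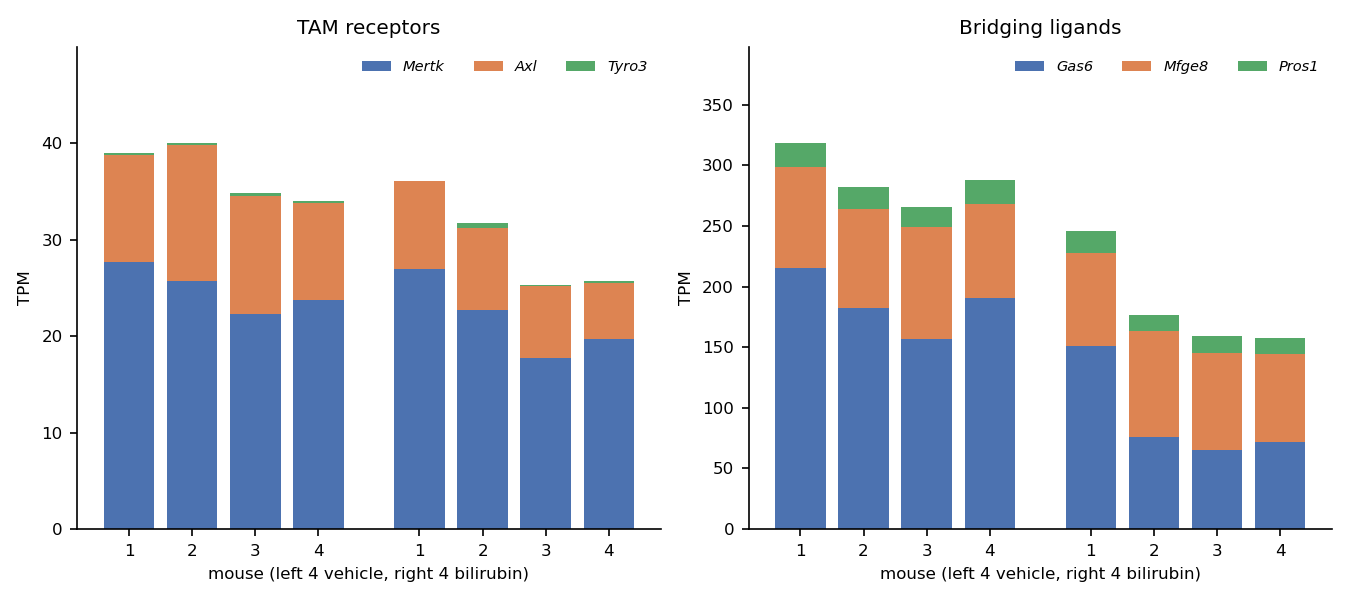
Stacked TPM of the TAM receptors (left) and of the bridging ligands (right) in each culture, with the 4 vehicle cultures before the 4 bilirubin cultures in each panel. The *Gas6* segment shrinks from 64.4% to 47.7% of the ligands on average and stays largest in mouse 1, while the *Mertk* segment makes up 67.3% of the receptors with vehicle and 73.3% with bilirubin.

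Of the TAM receptors, *Axl* was lower in the bilirubin culture of each mouse. It stood at 27.3, 26.0, 23.6 and 20.2 CPM with vehicle and at 21.4, 17.1, 15.8 and 13.0 CPM with bilirubin. The groups overlapped narrowly, with the bilirubin culture of mouse 1 above the vehicle culture of mouse 4. The log2 fold change was -0.54 ± 0.06 (SE), or a ratio of 0.688, and by mouse -0.35, -0.60, -0.57 and -0.63. Without mouse 1 it was -0.61. *Axl* passed in all 11 alternatives, as did *Gas6*, *Itgav* and *Itgb5*.

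*Mertk* was lower by less than *Axl* and did not pass the threshold. Its values were 71.6, 68.2, 59.7 and 63.0 CPM with vehicle and 69.9, 63.0, 48.7 and 55.8 CPM with bilirubin, lower in 4 of 4 mice. By mouse the log2 change was -0.03, -0.12, -0.29 and -0.18. The log2 fold change was -0.15 ± 0.05 (SE), and the gene passed in 2 of 11 alternatives, without a filter on low counts and without mouse 1, where the log2 fold change was -0.20. In the GENCODE annotation a gene model on the same strand, *Gm56345*, overlaps *Mertk* at chr2:128540729-128645080. Whether it shares exons with *Mertk* or took any of its reads here was not tested.

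*Tyro3* had 25, 11, 28 and 19 counts in vehicle libraries and 4, 23, 6 and 16 in bilirubin libraries. It was lower in 3 mice and higher in mouse 2, with a log2 fold change of -0.68 ± 0.57 (SE), and no difference was detectable at these counts. Since *Axl* was lower by more than *Mertk*, the receptors' make-up also differed. The TPM ratio of *Axl* to *Mertk* was 0.481 ± 0.0790 with vehicle and 0.358 ± 0.0523 with bilirubin (SD, n = 4), lower in 4 of 4 mice, and 0.508 and 0.365 without mouse 1. In counts, which short transcripts weigh on less, the ratio was 0.370 ± 0.0332 and 0.284 ± 0.0400, also lower in 4 of 4 mice. *Mertk* made up 67.3% ± 3.58 of the TPM of the 3 receptors with vehicle and 73.3% ± 2.89 with bilirubin, higher in 4 of 4 mice, and 66.1% and 72.8% without mouse 1.

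*Timd4* had 0, 7, 5 and 4 counts with vehicle and 9, 5, 13 and 5 with bilirubin. The 0 in the vehicle culture of mouse 1 allows up to 3 counts, or 0.0637 CPM. The gene did not pass the filter on low counts and was not tested, and its groups overlapped.

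The integrin subunits were lower together. *Itgav*, the α chain of both receptors, was at 440, 439, 417 and 415 CPM with vehicle and at 266, 328, 270 and 277 CPM with bilirubin. The groups were clearly separated, and the change of mouse 1 was here the largest of the 4. The log2 fold change was -0.59 ± 0.05 (SE), or a ratio of 0.665, and -0.55 without mouse 1. *Itgb5* stood at 348, 346, 334 and 332 CPM with vehicle and at 289, 249, 211 and 224 CPM with bilirubin, again without overlap, with a log2 fold change of -0.49 ± 0.06 (SE), or -0.57 without mouse 1.

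*Itgb3* had far fewer counts, 286 to 443 with vehicle and 159 to 253 with bilirubin. It stood at 8.43, 9.80, 10.2 and 6.73 CPM with vehicle and at 4.58, 6.92, 5.63 and 6.30 CPM with bilirubin, so that the groups overlapped through mouse 4, whose log2 change was -0.09 against -0.88 to -0.50 in the others. The log2 fold change was -0.58 ± 0.14 (SE), and *Itgb3* did not pass without mouse 2 (log2 fold change -0.61) or without mouse 3 (-0.49), whereas it passed without mouse 1 (-0.49). Nor did *Itgb3* pass without the pairing by mouse or with an offset for transcript length. The TPM ratio of *Itgb5* to *Itgb3* was 82.3 ± 14.1 with vehicle and 89.4 ± 28.9 with bilirubin, higher in 2 mice and lower in 2. Without mouse 1 the direction of the means turned, to 81.2 with vehicle and 75.0 with bilirubin.

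**Figure D4:**
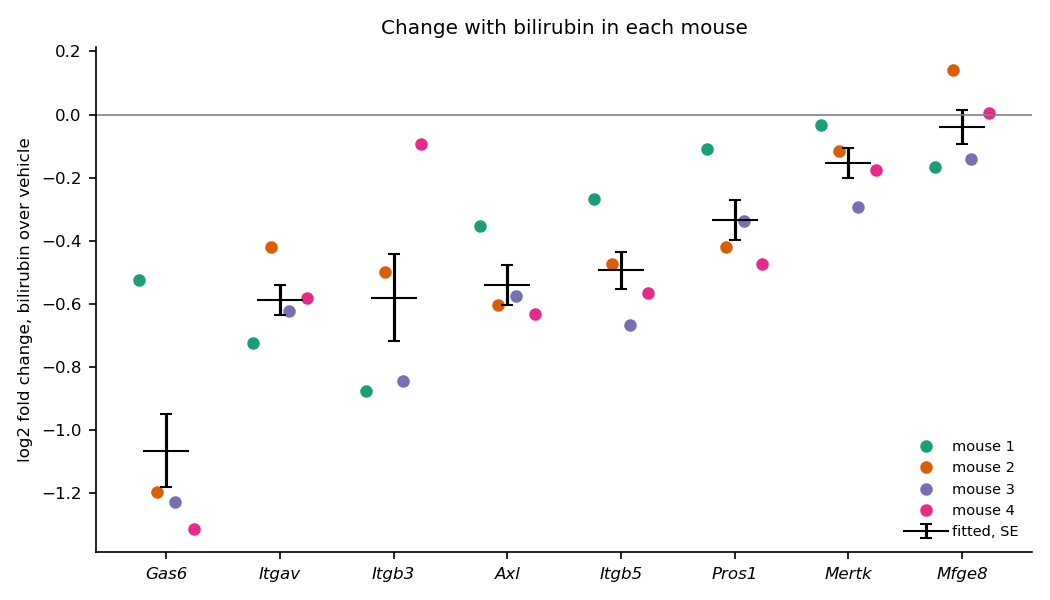
Log2 fold change of bilirubin over vehicle (y axis) in each of 4 mice (colored points) with the fitted value and its SE in black, for 8 of the 9 tested genes; *Tyro3*, at 4 to 28 counts, is left out. The change of *Gas6* in mouse 1, at -0.52, lies apart from the other 3, and *Itgav* and *Itgb3* have their largest change in the same mouse.

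In all, the groups did not overlap for 3 of the 9 tested genes (*Gas6*, *Itgav* and *Itgb5*). Among all tested genes, 4.69% were lower in every bilirubin library than in any vehicle library and 5.93% were higher, and nothing is read from the members' count, which the same contrast fixed. The median log2 change of the 9 genes was -0.35, -0.42, -0.62 and -0.47 in mice 1 to 4. Mouse 1 had the smallest change for 4 of the 6 genes past the threshold, namely *Gas6*, *Pros1*, *Axl* and *Itgb5*.

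The difference between mice, which the choice of genes did not use, was tested in the same model. By edgeR 0 of the 9 genes differed between mice at an adjusted p of 0.05, and the smallest adjusted p was 0.260. At an unadjusted p under 0.05, 3 did (*Axl*, *Mertk* and *Gas6*), as did 1810 of all genes. Of all 13722 genes 5 passed, or 0.0364%. DESeq2 called *Mertk* (adjusted p = 0.0147) and *Axl* (adjusted p = 0.0179), among 240 or 1.75% of all genes, and limma-voom called 0 of the 9. *Gas6* passed in edgeR when mouse 1 was left out (adjusted p = 0.0368), among 183 or 1.33% of all genes. In CPM both receptors had their highest vehicle and bilirubin level in mouse 1, whereas in TPM the highest vehicle level of *Axl* was in mouse 2. In that culture the short retained-intron transcript Axl-203 held 3.42 TPM from 36.1 reads, against 0 in the vehicle culture of mouse 1. The coding Axl-201 was at 6.89 TPM in mouse 2 and 6.90 in mouse 1, and Axl-202 at 2.50 and 3.52.

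The main transcripts of *Axl*, *Mfge8*, *Mertk* and *Itgb5* differed in share between the groups by less than the SD between mice. Axl-201, which holds the exon of 27 bases shown above, was 55.8% ± 5.57 of *Axl* TPM with vehicle and 56.4% ± 7.96 with bilirubin (SD, n = 4). Axl-202, which lacks it, was 20.8% ± 7.50 and 23.2% ± 7.80. Thus both forms of the receptor were lower with bilirubin, Axl-201 at 6.58 ± 0.623 and 4.33 ± 0.795 TPM and Axl-202 at 2.44 ± 0.781 and 1.87 ± 0.911 TPM, although the SDs of Axl-202 overlap. A retained-intron transcript, Axl-203, took 15.6% ± 12.9 and 16.9% ± 12.3 of the TPM but 2.30% and 2.37% of the counts of *Axl*.

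Mfge8-201, with the exon of 111 bases, the long form of MFG-E8, was 78.9% ± 2.15 of *Mfge8* TPM with vehicle and 77.1% ± 4.13 with bilirubin. Mfge8-202 was 17.3% ± 2.20 and 17.8% ± 3.10. *Mertk* was almost wholly Mertk-201, at 98.7% ± 1.86 and 99.3% ± 1.04. *Itgb5* was shared by Itgb5-202 (60.9% ± 2.89 and 60.4% ± 4.86), Itgb5-207 (29.1% ± 2.58 and 30.5% ± 3.13) and Itgb5-201 (8.05% ± 1.41 and 7.82% ± 2.46). *Itgav* differed from the others in that Itgav-201, the full-length transcript, held 94.0% of its counts with vehicle but 51.2% ± 2.90 of its TPM. With bilirubin its TPM share was 53.8% ± 3.25, higher in 4 of 4 mice, a mean difference of 2.65 points ± 2.42 (SD). Itgav-206 went from 30.5% ± 0.242 to 27.8% ± 3.61, lower in 3 of 4 mice, and Itgav-204 from 16.4% ± 2.49 to 17.3% ± 4.12. These short transcripts held 4.23% and 1.23% of the vehicle counts, so the level of *Itgav* per length rests in part on a small share of its reads. By Itgav-201 alone it was 90.9 ± 3.95 TPM with vehicle and 59.2 ± 5.31 TPM with bilirubin.

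Among the markers of other cell types, those of lymphoid cells and dendritic cells were at or near 0, with summed levels of at most 0.0575 and 0.647 CPM. The 8 fibroblast and stromal markers summed to 2.31 to 8.25 CPM with vehicle and 2.38 to 8.18 CPM with bilirubin, with *Lum* at 0 and *Col3a1* and *Dcn* at 3 counts or fewer in each library. The 5 endothelial markers summed to 13.3 to 15.1 CPM and 9.88 to 18.5 CPM, most of it *Kdr*. *Itgb3* is also carried by platelets and osteoclasts, and both of those lists hold it. The 6 platelet and megakaryocyte markers, of which *Itgb3* is 1, summed to 61.6 to 71.6 CPM with vehicle and 38.3 to 50.0 CPM with bilirubin. Of these, 2 were lower (*Pf4* and *Itgb3*), and the defining *Gp9* and *Gp1ba* were at 3 counts or fewer. The 6 osteoclast markers summed to 38.6 to 48.4 CPM with vehicle and 78.0 to 116 CPM with bilirubin, with *Acp5*, *Ctsk* and *Dcstamp* higher, *Itgb3* lower and *Calcr* at 0. The 8 neutrophil markers summed to 11.1 to 13.7 CPM and 19.2 to 32.2 CPM, mostly *S100a8*, with *Ly6g* at 3 counts or fewer. The part of these cells in the levels of *Itgb3* and the other genes was not tested.

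The rest of the pathway was read from 119 other genes in 8 lists, of which 109 were tested. With bilirubin 12 fell and 17 rose. Among all 13722 tested genes, 3.04% passed as lower and 4.49% as higher, and these shares also stand beside the counts by list below. The lists were written with earlier results of these data known, so their counts are a description. The median log2 fold change of the 109 genes was 0.00, against -0.00 over all tested genes. Without mouse 1 the lower count was 23 and the higher 24, and without mouse 2, 3 or 4 they were 7 and 16, 5 and 12, and 5 and 13. The counts over all genes moved in the same way. They were 417 lower and 616 higher with all mice, and 884 and 1026 without mouse 1. Without mouse 2, 3 or 4 they were 215 and 419, 112 and 265, and 139 and 302. The other recognition receptors were split. Of 15 tested, *Lrp1*, *Cd300a* and *Cd300lb* fell and *Itgb2*, *Itgam* and *Cd14* rose, with a median of -0.06. *Cd300a* and *Cd300lb* did not pass without mouse 3 (adjusted p = 0.0675 and 0.109) or mouse 4 (0.0547 and 0.110), and *Cd14* did not without the pairing by mouse (0.0775). *Lrp1*, an endocytic receptor that engages calreticulin on dying cells, fell from 4034 ± 112 to 3338 ± 243 CPM (log2 fold change -0.28 ± 0.04, adjusted p = 0.00305 in edgeR, lower in 4 of 4 mice), and did not pass with an offset for transcript length (adjusted p = 0.0880). *Itgb2* and *Itgam*, the chains of the complement receptor CR3, rose by 0.38 ± 0.05 (adjusted p = 0.00194) and 0.26 ± 0.04 (adjusted p = 0.00356) on the log2 scale in 4 of 4 mice. So whereas the αv integrin subunits were lower, these CR3 subunits were higher. *Stab1*, a phosphatidylserine receptor, was at -0.42 ± 0.12 and did not pass (adjusted p = 0.0854), but did without mouse 1 (log2 fold change -0.59, adjusted p = 0.000100). *Cd36*, a scavenger receptor, was at -0.16 ± 0.10 (adjusted p = 0.423), lower in 2 mice and higher in 2, at -0.04 without mouse 1 and -0.27 without mouse 2, and passed without a filter on low counts (adjusted p = 0.00586).

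Of the 11 tested bridging molecules and opsonins other than *Gas6*, *Pros1* and *Mfge8*, *Thbs1* fell and *C3* and *Anxa1* rose, with a median of 0.00. *Thbs1*, the gene of thrombospondin-1, which bridges apoptotic cells to CD36 and αvβ3, fell from 41.4 ± 7.01 to 17.2 ± 3.80 CPM (log2 fold change -1.28 ± 0.06, adjusted p = 3.06e-05 in edgeR, 4 of 4 mice), beside -1.07 for *Gas6*. *C3*, the complement opsonin read by CR3, rose from 15.6 ± 1.05 to 132 ± 38.5 CPM (log2 fold change 3.05 ± 0.12, adjusted p = 1.27e-05, 4 of 4 mice). *Anxa1*, of annexin A1, rose by 0.30 ± 0.05 on the log2 scale (adjusted p = 0.00770) and did not pass without mouse 3 (0.31, adjusted p = 0.0709). *C1qa*, of the opsonin C1q, was at -0.14 ± 0.22 (adjusted p = 0.795), higher in 2 mice and lower in 2, and at -0.45 without mouse 1 (adjusted p = 0.0533). Its partners *C1qb* and *C1qc*, named after their values were seen, also passed as lower without mouse 1 alone among the mice left out (-0.61, adjusted p = 0.0279, and -0.63, adjusted p = 2.50e-05).

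**Figure D5:**
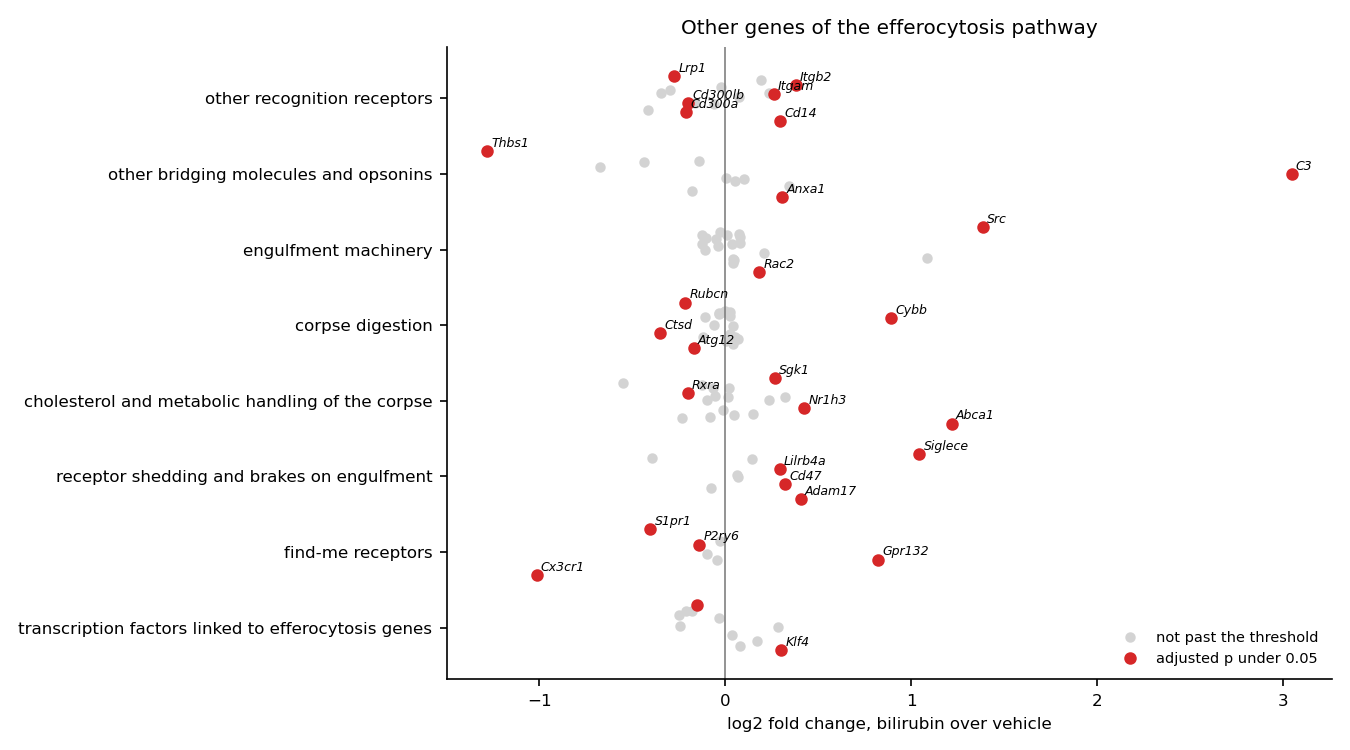
Log2 fold change of bilirubin over vehicle (x axis) for the 109 tested genes of the other lists (y axis, 1 row per list, with points spread vertically for legibility), red where the adjusted p is under 0.05 in edgeR and named there with 1 exception. In all, 12 red points lie to the left of 0 and 17 to the right, with *C3* at 3.05 and *Thbs1* at -1.28 as the ends.

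Of 19 tested genes of the engulfment machinery, which lies downstream of the receptors, 0 fell and 2 rose, with a median of 0.04. *Src*, a kinase that acts below MerTK and the integrins, rose from 8.98 ± 1.10 to 23.6 ± 4.18 CPM (log2 fold change 1.39 ± 0.09, adjusted p = 7.58e-05 in edgeR, 4 of 4 mice). *Rac2* rose by 0.18 ± 0.03 (adjusted p = 0.0137), which was lost without mouse 2 (0.17, adjusted p = 0.0801), mouse 3 (0.16, 0.124) or mouse 4 (0.20, 0.0610). *Rac1* was at -0.04 ± 0.04 (adjusted p = 0.628) and *Elmo1*, which activates it with Dock proteins, at -0.11 ± 0.04 (adjusted p = 0.130, and 0.0199 without mouse 1, at -0.14).

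The list of receptor shedding and brakes on engulfment had the highest median, 0.15, with 4 of 9 tested genes higher and 0 lower. *Adam17*, the protease that sheds MerTK from the cell surface, rose from 280 ± 10.8 to 371 ± 24.9 CPM (log2 fold change 0.41 ± 0.04, adjusted p = 0.000604 in edgeR, 4 of 4 mice). *Cd47*, the don't-eat-me signal, rose by 0.32 ± 0.04 (adjusted p = 0.00139, 4 of 4 mice), while *Sirpa*, its receptor, was at 0.06 ± 0.05 (adjusted p = 0.532). *Lilrb4a*, an inhibitory receptor whose reads can be shared with its near-identical copy *Lilrb4b*, rose by 0.29 ± 0.04 (adjusted p = 0.00265). *Siglece* also passed as higher (adjusted p = 0.0381), but not without mouse 2 (0.137), mouse 3 (0.204) or mouse 4 (0.0538).

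Of 19 tested genes of corpse digestion, 3 fell and 1 rose, with a median of -0.00. *Cybb*, the catalytic subunit of the NADPH oxidase used in LC3-associated phagocytosis, rose from 565 ± 16.1 to 1052 ± 105 CPM (log2 fold change 0.89 ± 0.06, adjusted p = 8.38e-05 in edgeR, 4 of 4 mice). *Ctsd*, of the lysosomal protease cathepsin D, fell by 0.35 ± 0.04 on the log2 scale (adjusted p = 0.00192, 4 of 4 mice). *Rubcn*, of rubicon, fell by 0.22 ± 0.05 (adjusted p = 0.0290) and did not pass without mouse 2 (-0.23, adjusted p = 0.0989), mouse 3 (-0.22, 0.163) or mouse 4 (-0.17, 0.156), nor without the pairing by mouse (adjusted p = 0.115). *Atg12* was the third that passed as lower (adjusted p = 0.0309), but not without mouse 2 (0.0877), mouse 3 (0.153) or mouse 4 (0.186).

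Of 18 tested genes of cholesterol and metabolic handling of the corpse, 1 fell and 3 rose, with a median of -0.00. The lower one, *Rxra*, had an adjusted p of 0.0499 and did not pass without mouse 2 (0.205), mouse 3 (0.249) or mouse 4 (0.246). *Abca1*, the cholesterol exporter that macrophages use after engulfment, rose from 13.9 ± 1.83 to 33.2 ± 10.5 CPM (log2 fold change 1.22 ± 0.16, adjusted p = 0.00251 in edgeR, 4 of 4 mice). *Nr1h3*, of the oxysterol receptor LXRα, of which *Abca1* and *Mertk* are known targets, rose by 0.42 ± 0.06 (adjusted p = 0.00314, 4 of 4 mice), whereas *Mertk* did not pass. *Sgk1* rose by 0.27 ± 0.04 (adjusted p = 0.00363), and did not pass with an offset for transcript length (adjusted p = 0.163).

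Receptors for find-me signals, with which a macrophage locates a dying cell, had 3 of 7 genes lower and 1 higher, with a median of -0.10. *Cx3cr1*, the fractalkine receptor, fell from 188 ± 20.9 to 93.0 ± 9.23 CPM (log2 fold change -1.02 ± 0.06, adjusted p = 5.00e-05 in edgeR, 4 of 4 mice). *S1pr1* fell by 0.40 ± 0.05 (adjusted p = 0.00276, and 0.0568 without the pairing by mouse), and *P2ry6* also passed as lower (adjusted p = 0.0434), but not without mouse 2 (0.184), mouse 3 (0.141) or mouse 4 (0.205). *Gpr132* rose by 0.82 ± 0.14 (adjusted p = 0.00958), and did not pass without mouse 3 (0.79, adjusted p = 0.0959) or mouse 4 (0.80, 0.0700).

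Of the tested transcription factors linked to efferocytosis genes, *Klf4*, of a factor that shapes macrophage states, rose. Its log2 fold change was 0.30 ± 0.05 (adjusted p = 0.00773), and did not pass without mouse 3 (0.30, adjusted p = 0.0727) or mouse 4 (0.29, 0.0609), nor without the pairing by mouse (adjusted p = 0.219).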

How the data were processed

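RNA of 8 BMDM cultures was sequenced after poly-A selection. Per the labels and the study's methods, the authors trimmed reads with Trim Galore 0.6.7 and Cutadapt 3.4, aligned them with STAR 2.7.9a to GRCm39 and quantified transcripts with Salmon 1.10.1. They deposited a gene table of estimated counts (88.5% whole numbers), without scaling, and 142434 transcripts per library with their estimated counts and TPM. Gene TPM is their sum.

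The genes, lists, motifs and alternatives were chosen with earlier results of these data known. Counts were rounded and tested with edgeR 4.0.16 in R 4.3.3: TMM scaling, filterByExpr (10 counts in enough libraries, 15 summed), mouse and treatment as terms, the quasi-likelihood test, and Benjamini-Hochberg adjustment over 13722 genes, threshold 0.05. Each SE is the fold change over the root of its F. The log2 changes by mouse used log2 CPM with a prior count of 2. TPM levels and ratios have no test. The replicate number is the mouse in the labels, so cultures were paired by it. Deviations from the group means had a mean correlation of 0.0862 within mice and -0.0279 between mice. Such deviations cancel out within a group, so the second value largely follows from the first. By mouse the correlation within mice was 0.108, 0.134, 0.108 and -0.00530. For mouse 4 it was below the highest correlation with another mouse, 0.0751, so the pairing rests on the labels. The mouse terms take out the level of each mouse. With 4 mice, p-values for bilirubin therefore set its change against how that change varied between mice.

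The text names all 10 genes, and of each other list the 3 with the smallest adjusted p among those past the threshold plus *Stab1*, *Lrp1*, *Cd36*, *C1qa*, *Elmo1*, *Rac1*, *Abca1*, *Nr1h3*, *Adam17*, *Sirpa* and *Cd47*. A gene of this rule and a gene of the likeness ranking are not reported here. The few others that passed are named so that each count is complete, which was decided after their values were seen. Transcripts with a mean share of 5% or more of their gene were described. Alternatives were no mouse term, DESeq2 1.42.0, limma-voom (limma 3.58.1), other scalings, no filter, a length offset, and each mouse left out. The script was tested on simulated counts. Gene positions are from GENCODE on GRCm39 and promoters from RefSeq on GRCm38.p6. Protein sequences were not used here.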

Additional observations from a re-analysis of the deposited data

Results flagged for a closer look

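Among 37 groups of 4 values checked for a value far from the others (by Dixon's test at its critical value for 4), 2 stood out, and chance gives about 1 in 20. The log2 change of *Gas6* in mouse 1 was -0.52, whereas the other mice ranged from -1.32 to -1.20. The log2 CPM of *Pros1* in the bilirubin culture of mouse 1 was 5.17, against 4.76 to 4.82 in the other 3. Both values belong to the bilirubin culture that stood apart over all genes, and its part in them was not tested.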

How the results depend on the processing

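All 99 fold changes of the 9 tested receptor and ligand genes over 11 alternatives kept their direction and lay within 1 SD between mice of the reported value. This bound is a loose one. Dropping 1 of 4 values moves a mean by less than their SD, so the fits without a mouse could hardly exceed it. For *Tyro3* the SD was 1.37. *Axl*, *Gas6*, *Itgav* and *Itgb5* passed the threshold in all 11, *Itgb3* in 7, *Pros1* in 6, *Mertk* in 2, and *Tyro3* and *Mfge8* in 0. Without the replicate block, which removes the pairing by mouse, *Pros1* and *Itgb3* were lost, the 1033 genes called in all became 686 and the other pathway genes called lower fell from 12 to 7. Without a filter these were 1692 and 20, and with a length offset 579 and 6. *Pros1* and *Itgb3* were lost with the length offset too. Leaving out 1 mouse gave 377 to 1910 genes in all and 5 to 23 other pathway genes lower, the highest of both without mouse 1. Genes of the 9 that differed between mice were 2 by DESeq2 (240 of all genes), 4 without a filter (1183) and 0 to 1 with a mouse left out (0 to 183). Library size alone as scaling called 556 genes lower and 527 higher, against 417 and 616, with the median of all genes at -0.03. The causes were not tested. At 28 counts or fewer, *Tyro3* and *Timd4* are limited by depth.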

Other observations

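Over the 8 libraries, among 10905 genes whose log2 CPM averaged 1 or more, the log2 CPM most like that of *Gas6* was that of *Mef2a* (Pearson's r = 0.992), *Tmem273* (0.990) and *Bmp2k* (0.989). For *Axl* it was *Rasal3* (0.984), *Tex9* (0.980) and *Prss16* (0.974), and for *Mertk* *Cnot6l* (0.983) and *Chek2* (0.983). Among the members, *Gas6* was most like *Pros1* (0.979) and *Itgb5* (0.974). The libraries share their mouse and treatment groups, and these values are descriptions over genes ranked after the fact.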
